A study of Mus musculus with 103 samples.

Results

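Mitochondrial tRNAs were taken as every entry of the YAMAT-seq table whose identifier begins with "mtRNA-", which gave 22 tRNAs of 240 listed, the other 218 being nuclear isodecoders. Each of the 22 matched a different tRNA gene of the mouse mitochondrial genome by amino acid and anticodon. YAMAT-seq ligates a Y-shaped adapter to the free CCA end of deacylated, mature tRNA and so reads full-length molecules, here from adult mouse cortex. The control group (WT, n = 3 libraries) carried floxed Nsun2 without Camk2a-Cre, and the knockout group (KO, n = 4 libraries) carried floxed Nsun2 with Camk2a-Cre, each library bearing its own animal number. The Camk2a promoter drives Cre in forebrain excitatory neurons, so that other cells of the homogenised cortex kept Nsun2 in the KO. Because these are bulk samples, fewer cells of a type and less RNA per cell cannot be told apart. The comparison addressed whether loss of NSUN2, a tRNA cytosine methyltransferase, was accompanied by a different level of each tRNA.

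Mammalian mitochondria make their own tRNAs, a single gene for each amino acid except leucine and serine, which have a pair each. The genes lie between the rRNA and protein-coding genes on both strands of the circular genome, are transcribed in long precursors from the heavy-strand and light-strand promoters, and are cut out by the RNase P and RNase Z of the organelle before CCA is added. They translate only the respiratory chain subunits encoded in that genome. NSUN2 is known to enter mitochondria and to methylate cytosines of the variable loop in some of these tRNAs, besides its nuclear-encoded targets.

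The most and the least abundant members differed little in length but much in level, and the last base before the added CCA differed between them, so their gene sequences are shown first, 5′ to 3′ as DNA on the coding strand. The sequences come from the RefSeq mitochondrial genome of GRCm38, without CCA, and capitals mark the anticodon. The 3 most abundant in WT, the 3 least abundant and the only member past the test threshold follow in that order.
mtRNA-His-GTG: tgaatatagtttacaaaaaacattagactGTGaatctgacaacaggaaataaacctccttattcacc
mtRNA-Trp-TCA: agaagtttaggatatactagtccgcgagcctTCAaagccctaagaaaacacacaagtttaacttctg
mtRNA-Asn-GTT: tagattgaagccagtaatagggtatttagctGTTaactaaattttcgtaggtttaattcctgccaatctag
mtRNA-Glu-TTC: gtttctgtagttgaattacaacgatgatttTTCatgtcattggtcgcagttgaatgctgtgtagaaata
mtRNA-Ser2-TGA: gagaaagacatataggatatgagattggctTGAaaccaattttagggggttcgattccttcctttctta
mtRNA-Tyr-GTA: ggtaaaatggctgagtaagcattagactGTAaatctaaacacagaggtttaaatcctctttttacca
mtRNA-Cys-GCA: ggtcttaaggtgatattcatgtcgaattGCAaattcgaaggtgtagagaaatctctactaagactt
In GRCm38 these genes are mt-Th (chrM:11546-11612, plus strand), mt-Tw (chrM:4950-5016, plus), mt-Tn (chrM:5089-5159, minus), mt-Te (chrM:14071-14139, minus), mt-Ts1 (chrM:6870-6938, minus), mt-Ty (chrM:5260-5326, minus) and mt-Tc (chrM:5192-5257, minus). The table's numbering of the leucine and serine tRNAs is the reverse of the gene symbols, since Leu1-TAG is mt-Tl2, Leu2-TAA is mt-Tl1, Ser1-GCT is mt-Ts2 and Ser2-TGA is mt-Ts1.

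The 7 libraries held between 77910 and 139036 reads after removal of duplicate molecules, of which 21473 to 30452 were mitochondrial, and no mitochondrial tRNA had fewer than 156 reads in any library. WT2 and KO2 stood apart in the deposited normalised counts, whose sum was highest in WT2 (129137) and lowest in KO2 (76840), while the other 5 libraries lay between 94245 and 102576. WT2 was also the shallowest library and KO2 the deepest. Where stated, results are also given without WT2, without KO2 or without both. The rest, among them the isoacceptor ratios and the cytosine groups, include both. In separate mice used for ribosome profiling (2 WT, 2 KO), Nsun2 RNA was 1292 and 1120 normalised counts in WT and 362 and 368 in KO. The excitatory neuron markers Slc17a7, Camk2a and Neurod6 were present there, at no less than 1075 in any mouse. The YAMAT-seq table lists tRNAs only, so neither the deletion nor the tissue could be checked in those libraries.

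Mitochondrial tRNAs made up 26.4% of the tRNA signal of WT in cortex. Their share of all tRNA was 25.0%, 27.6% and 26.6% in WT1 to WT3 (SD 1.30, n = 3) and 24.0%, 21.9%, 26.5% and 25.5% in KO1 to KO4 (24.5% ± 2.01, SD, n = 4). The genotypes overlapped, KO2 being the lowest library and WT2 the highest. The exact 95% binomial interval of a single library was narrow, 24.7 to 25.3% in WT1 and 21.7 to 22.1% in KO2, and covers counting error only. The difference was -1.89 percentage points, and -0.44 points with WT2 and KO2 left out.

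**Figure D1:**
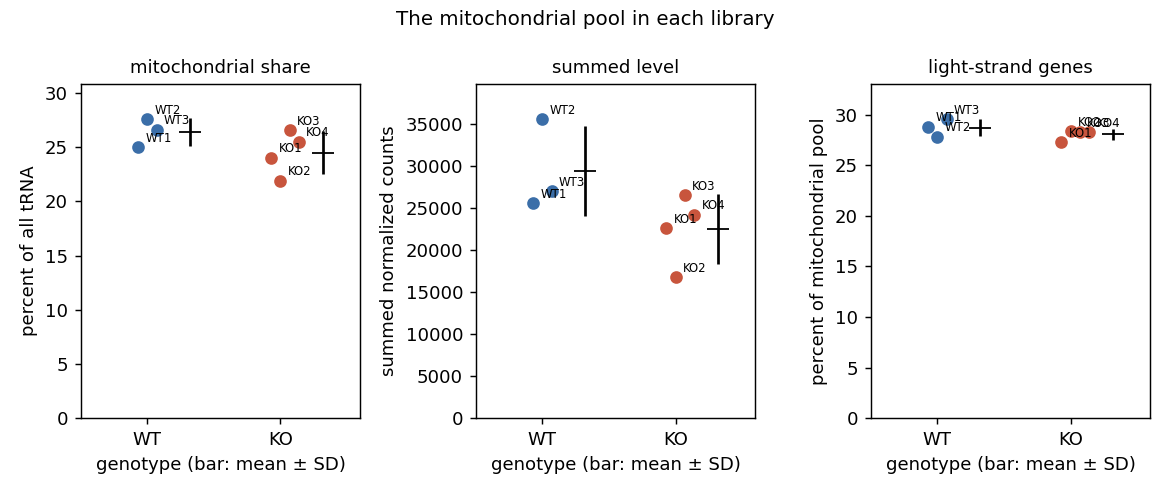
Share of mitochondrial tRNAs in all tRNA (left, percent), their summed normalised counts (middle) and the share of light-strand genes in the mitochondrial pool (right, percent), with a point for each library and the mean ± SD for WT (n = 3) and KO (n = 4). The genotypes overlap in every panel, and WT2 and KO2 are the highest and lowest points of the middle panel.

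The individual members were abundant tRNAs. Their median WT level was 1125 normalised counts, against 139 for the 146 nuclear isodecoders with a mean of 10 or more in either genotype, and 18 of the 22 were among the 50 most abundant tRNAs of the table. Nuclear isodecoders with the same anticodon are separate entries, so these medians do not compare the supply per anticodon. Histidine tRNA ranked 8 and tyrosine tRNA 81 among all 240 in WT. A normalised count of a tRNA read end to end does not scale with length, and the genes spanned only 59 to 75 bases.

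Within the mitochondrial pool, the level of each tRNA is given as its percent of the summed mitochondrial signal of that library, a quantity that is free of the differences in deposited sums. An equal share would be 4.55%, and 9 of the 22 were above it in WT. The most abundant, His-GTG, which reads the histidine codons, was 10.8%, 11.5% and 8.70% of the pool in WT1 to WT3. Trp-TCA, which reads UGA as well as UGG in mitochondria, was 9.33%, 11.2% and 9.59%. Asn-GTT was 9.45%, 9.36% and 10.1% and was the top member in WT3 only. The ranges of these 3 overlapped, and their order differed between WT mice.

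Gln-TTG followed at 8.59%, 8.55% and 8.40%, below every WT value of Asn-GTT and above every WT value of Val-TAC, whose mean was 6.51% ± 0.17 (SD, n = 3). The top 4 tRNAs held 38.5% ± 1.96 of the pool. A middle group from Val-TAC to Lys-TTT descended from 6.51% to 3.75%, and a lower group from Ile-GAT to Thr-TGT from 3.05% to 2.51%. In that lower group all neighbours in the order had overlapping WT ranges. The 4 least abundant were Ala-TGC, Glu-TTC, Ser2-TGA and Tyr-GTA, which together held 4.87% ± 0.43.

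Tyr-GTA was 0.650%, 0.834% and 0.927% of the pool in WT1 to WT3, the lowest of the 22 in each of those libraries. Ser2-TGA was next at 1.20%, 1.16% and 1.30%. From His-GTG to Tyr-GTA the mean shares spanned 12.9-fold. Of 21 neighbouring pairs in the order, 9 had WT ranges that did not overlap and 12 did. The order was nearly the same in KO, with a Spearman rho of 0.99 between the mean shares of the 22 in WT and KO, given as a description.

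**Figure D2:**
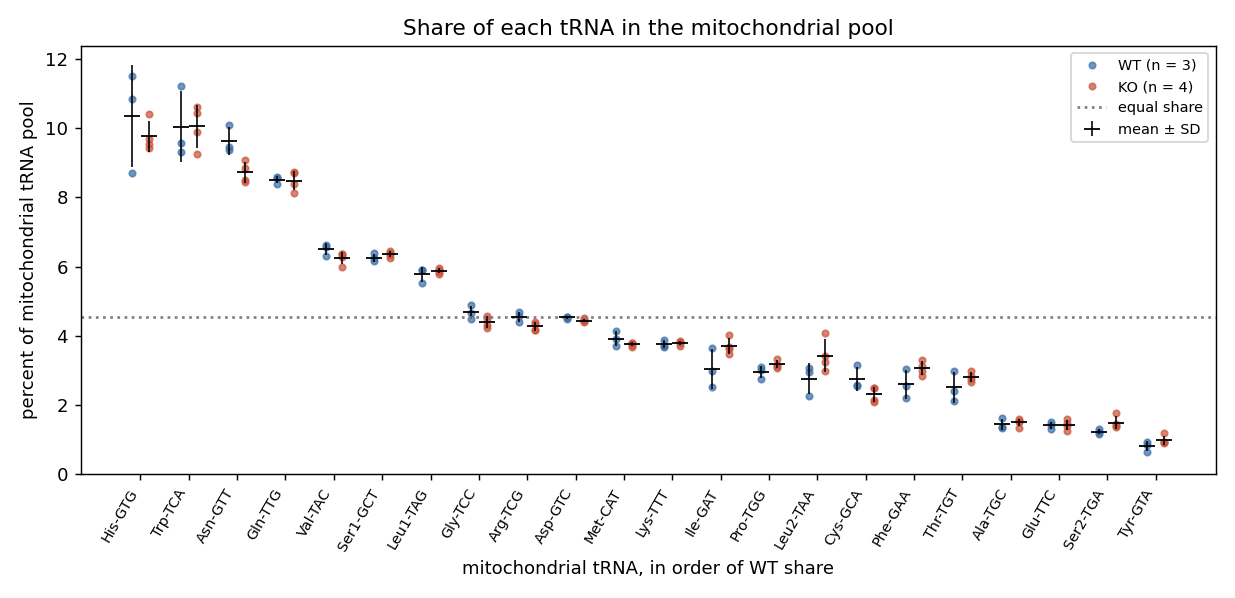
Percent of the mitochondrial pool held by each of the 22 tRNAs in each library, ordered by WT mean, with points for single libraries, mean ± SD for WT (n = 3) and KO (n = 4), and a dotted line at the equal share of 4.55%. His-GTG, Trp-TCA, Asn-GTT and Gln-TTG lie above 8% in every library, and Tyr-GTA lies lowest in WT at 0.80%.

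Light-strand genes had a lower median level than heavy-strand genes, with exceptions among the most abundant members. The 14 genes encoded on the heavy strand held 71.3% of the WT pool and the 8 light-strand genes, those of Gln, Ala, Asn, Cys, Tyr, Ser2, Glu and Pro, held 28.7% ± 0.85 (SD, n = 3). The median member was 2.10% for the light-strand genes and 4.54% for the heavy-strand genes. Asn-GTT and Gln-TTG, both light-strand genes, were nevertheless 3rd and 4th of the 22. The light-strand share was 28.1% ± 0.53 (n = 4) in KO and the genotypes overlapped.

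Neighbouring genes differed widely in level. In the cluster between mt-Nd2 and mt-Co1, where 5 tRNA genes follow each other, Trp-TCA stood at 10.0%, Ala-TGC at 1.43%, Asn-GTT at 9.63%, Cys-GCA at 2.76% and Tyr-GTA at 0.80% of the WT pool, a span of 12.5-fold. The last 4 of these come from the light strand. The cluster His-GTG, Ser1-GCT and Leu1-TAG, all from the heavy strand, spanned 1.79-fold. Across the 14 heavy-strand genes the order along the strand had a Spearman rho of 0.23 with WT level, and across the 8 light-strand genes 0.40, both as descriptions over genes that share libraries.

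**Figure D3:**
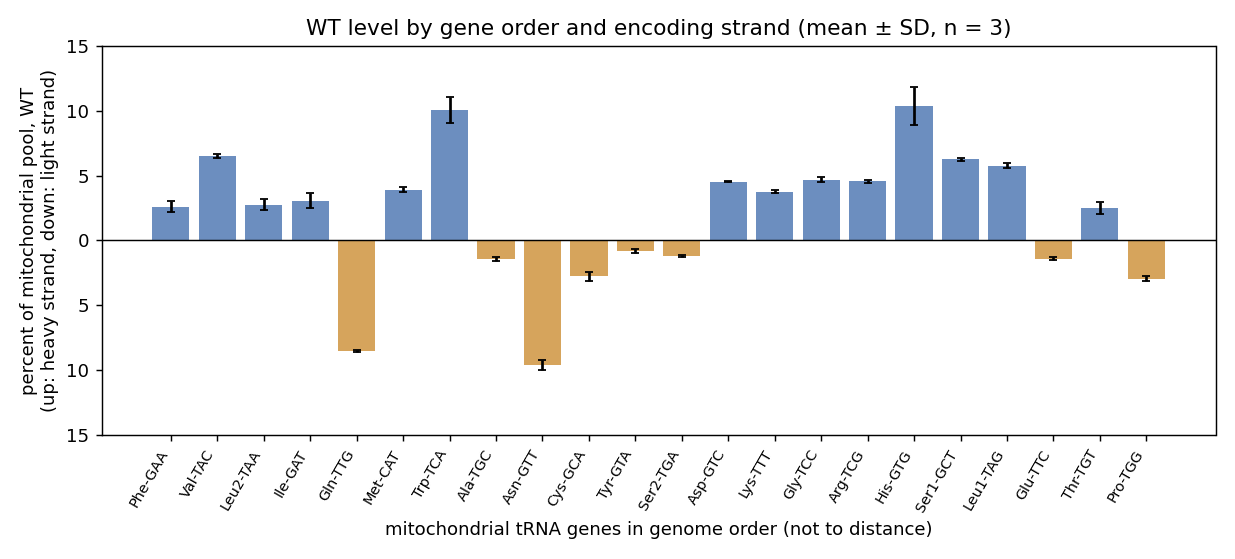
WT level of each mitochondrial tRNA as percent of the pool (mean ± SD, n = 3), with genes in genome order and not to distance, heavy-strand genes above the line and light-strand genes below it. Asn-GTT (9.63%) and Tyr-GTA (0.80%), which are separated by a single tRNA gene, are among the tallest and the shortest bars.

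The pairs of isoacceptors were unequal. Leu1-TAG, which reads the CUN leucine codons, exceeded Leu2-TAA, which reads the UUR codons, by 2.14 ± 0.42 times in WT (SD, n = 3) and 1.74 ± 0.22 times in KO (n = 4). Ser1-GCT, which reads the AGY serine codons and is the shortest of the 22 genes at 59 bases, exceeded Ser2-TGA, which reads the UCN codons, by 5.13 ± 0.30 times in WT and 4.33 ± 0.46 times in KO.

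WT level did not follow how often the codons of a tRNA occur. Over the 3790 codons of the 13 protein-coding genes, the Spearman rho between codons assigned to a tRNA and its WT level was -0.25 and Pearson's r with the log2 level was -0.16 (22 tRNAs, a description). Leu1-TAG, with the most codons (444), held 5.78% of the pool, whereas Ser1-GCT with 49 codons held 6.26%. Thr-TGT and Ile-GAT, with 308 and 371 codons, were in the lower group. Gene length and GC content also had weak relations to level, with a rho of 0.06 and -0.12.

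The last base of the gene, next to which the ligated CCA end begins, did go with level. The 4 most abundant tRNAs were exactly the 4 whose gene ends in G or C (Trp-TCA, Asn-GTT and Gln-TTG in G, His-GTG in C), while 17 end in A and Cys-GCA in T. The 17 ending in A held 58.7% ± 1.94 of the WT pool between them. The adapter of YAMAT-seq is joined across this base, and its part in the measured levels was not tested.

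**Figure D4:**
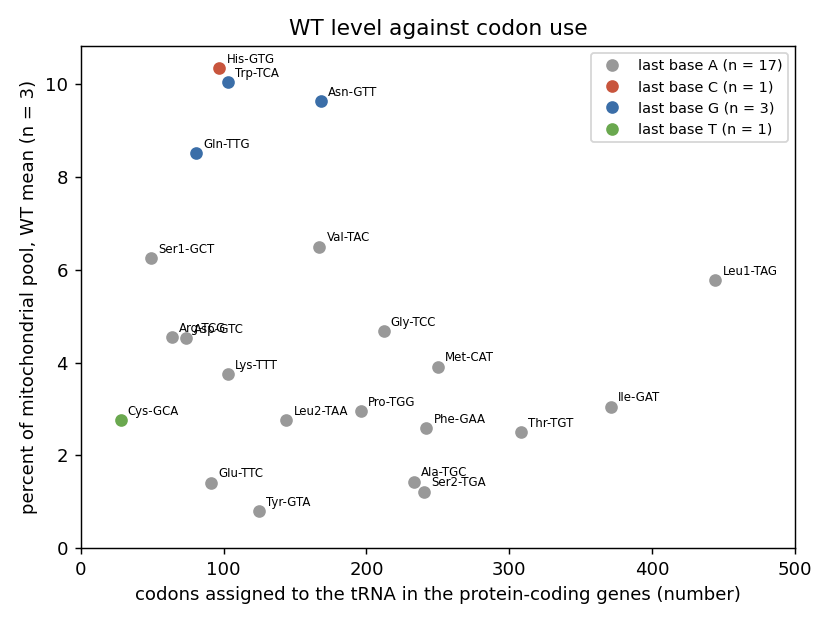
WT level as percent of the mitochondrial pool (mean of 3 libraries) against the number of codons assigned to each of the 22 tRNAs in the 13 protein-coding genes, coloured by the last base of the tRNA gene. The 4 points above 8% are those ending in G or C, and the tRNA with the most codons, Leu1-TAG, lies at 5.78%.

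On the deposited scale every mitochondrial tRNA was estimated lower in KO, and 1 passed the test. Differences are log2 of KO over WT of the normalised count plus 1, from limma over the 168 tRNAs with a mean of 10 or more in a genotype, with Benjamini-Hochberg adjustment over all 168 and a threshold of 0.05. All 22 members passed the filter. Their differences ran from -0.64 to -0.07 with a median of -0.38, against -0.00 for all 168 and 0.15 for the 146 nuclear isodecoders. Of these 146, 62 were estimated lower. The members share libraries and a scale, so their signs are not separate observations. The 59 nuclear isodecoders that exceeded the least abundant member in WT had a median of -0.14.

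Cys-GCA, the cysteine tRNA, was the member that fell. It had 809, 910 and 693 normalised counts in WT1 to WT3 and 566, 421, 554 and 517 in KO1 to KO4, so that every KO library was below every WT library. The difference was -0.64 (SE 0.15, limma adjusted p = 0.022), a fold of 0.64. Among all 168 tRNAs, 2.98% were called lower and 5.95% higher, and 1 of 22 members lower and 0 higher is near or below those shares. It was -0.37 when libraries were scaled to the sum of all tRNAs and -0.40 when scaled to that of nuclear tRNAs, and the call held in both. The call was lost without WT2 (-0.55, limma adjusted p = 0.11), without KO4 (-0.65, limma adjusted p = 0.065) and without WT2 and KO2 together (-0.46, limma adjusted p = 0.064). Without KO3, 5 members were called lower, where 10 of all tRNAs tested were. Cys-GCA stayed below 0 under every setting tried.

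Groups that did not overlap were no more frequent among the members than in the table. Cys-GCA, Asn-GTT and Arg-TCG had every KO library below every WT library, 3 of 22, where 14.9% of all 168 did. Asn-GTT was 2423, 3332 and 2728 normalised counts in WT and 1925, 1423, 2419 and 2145 in KO, a difference of -0.53 (SE 0.21, limma adjusted p = 0.098). The KO3 value lay only just below that of WT1. Without WT2 and KO2 the Asn-GTT difference was -0.26 (limma adjusted p = 0.20). Including Cys-GCA, 9 of 22 members had an unadjusted p under 0.05, all lower, where 14.3% of all 168 tRNAs were lower and 19.0% higher at that threshold. Without WT2 and KO2 the count was 2 members lower, where 17 of all tRNAs tested were lower. Without WT2 alone it was 1 member, where 10 of all tRNAs tested were lower.

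The common shift of the members moved with the scaling and with WT2 and KO2. When each library was scaled to its sum over all tRNAs, the median of all 168 tRNAs moved from -0.00 to 0.27 and that of the members to -0.10, with 16 of 22 below 0. The members' median then lay -0.37 from that of all tRNAs, as on the deposited scale (-0.38). After quantile normalisation it lay -0.11 from it, with 17 of 22 below 0. Leaving out WT2 and KO2 also gave -0.11, with 17 of 22 below 0. The summed normalised counts of the members were 25629, 35592 and 27055 in WT and 22662, 16830, 26602 and 24259 in KO.

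Within the mitochondrial pool the genotypes were close and no member passed the test. With each library scaled to its mitochondrial sum before the same fit, the 22 differences ran from -0.26 to 0.32 with a median of 0.01, 13 of them within 0.1 of 0. Members called lower and higher numbered 0 and 0, with 0.0% of all 168 tRNAs lower and 0.595% higher on this scale. At an unadjusted p under 0.05 there was 1 member of 22 lower (Asn-GTT) and 1 higher (Ile-GAT), where 2.38% of all 168 tRNAs were lower and 28.6% higher. Without WT2 and KO2 these counts were 2 lower and 0 higher, where 8 of all tRNAs tested were lower and 22 higher. With limma voom on the recovered reads 0 members passed the adjusted threshold in either direction. At an unadjusted p under 0.05 that fit had 1 member lower and 0 higher, where 4 of all tRNAs were lower and 41 higher.

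**Figure D5:**
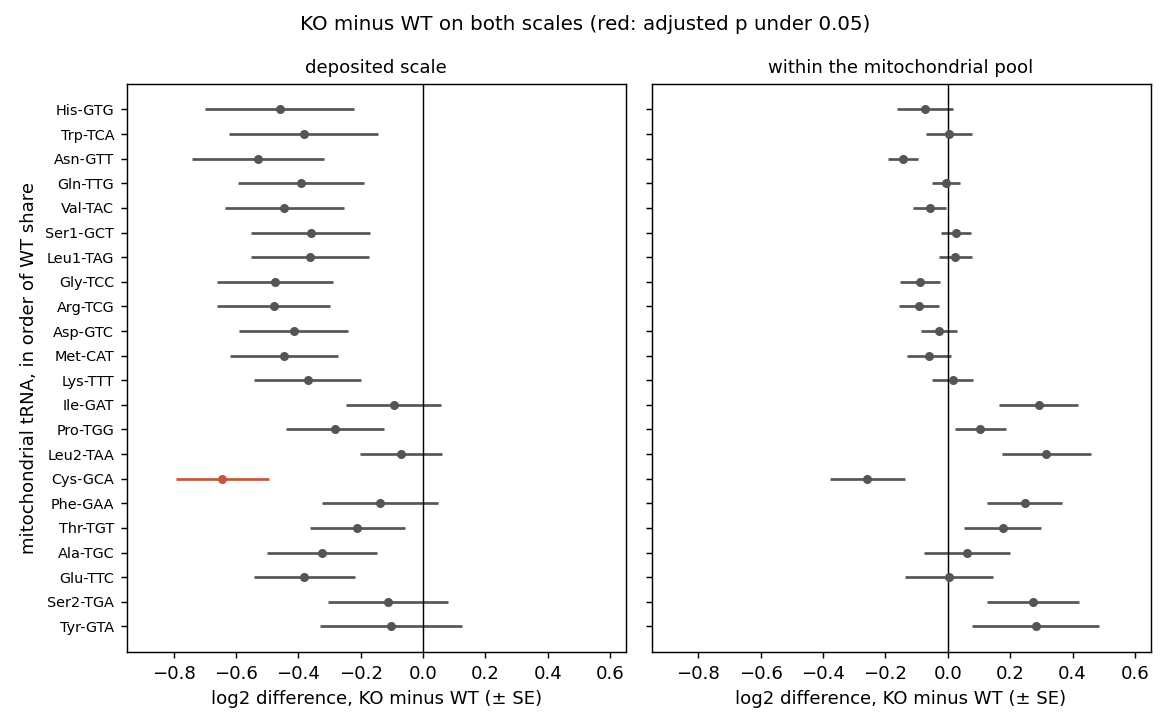
Log2 difference KO minus WT (± SE) of each of the 22 tRNAs on the deposited scale (left) and within the mitochondrial pool (right), ordered by WT share, red where the adjusted p was under 0.05. All points lie below 0 on the left, with Cys-GCA at -0.64 in red, and they lie between -0.26 and 0.32 on the right with none in red.

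Asn-GTT and Cys-GCA had the clearest lower shares in the KO pool. Asn-GTT was 8.50%, 8.46%, 9.09% and 8.84% in KO1 to KO4, every value below the lowest WT value of 9.36%. The log2 difference of Asn-GTT was -0.14 (SE 0.05, limma adjusted p = 0.10), and -0.15 without WT2 and KO2. Cys-GCA was 3.15%, 2.56% and 2.56% in WT and 2.50%, 2.50%, 2.08% and 2.13% in KO. The difference of Cys-GCA was -0.26 (SE 0.12, limma adjusted p = 0.17). It was -0.16 without WT1 and -0.35 without WT2 and KO2 (limma adjusted p = 0.24). Every KO library was lower than every WT library for these 2 of 22, where this held for 1.79% of all 168 tRNAs on this scale. The nuclear isodecoders sat higher on it, with the median of all 168 at 0.38, so lower values were rarer.

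Several members of low abundance had higher estimates in the KO pool that did not pass. Leu2-TAA was 3.07%, 2.24% and 2.96% in WT and 3.41%, 4.07%, 2.98% and 3.23% in KO, a difference of 0.32 (SE 0.14, limma adjusted p = 0.16) in which KO3 overlapped with WT1 and KO2 was highest. It was 0.17 without WT2 and 0.09 without WT2 and KO2. Ile-GAT was 2.99%, 2.51% and 3.66% in WT and 3.61%, 4.03%, 3.48% and 3.66% in KO, a difference of 0.29 (SE 0.13, limma adjusted p = 0.16), with WT3 inside the KO range. It was 0.16 without WT2, 0.43 without WT3 and 0.12 without WT2 and KO2. Ser2-TGA was 1.44%, 1.35%, 1.38% and 1.77% in KO, all above the highest WT value of 1.30%. It was the only 1 of 22 that was higher in every KO library, where 21.4% of all 168 tRNAs were. Its difference was 0.27 (SE 0.15, limma adjusted p = 0.22), and 0.28 without WT2 and KO2. Of the 11 least abundant members 10 were above 0, and of the 11 most abundant 8 were below 0. The split was made on the WT share, which also enters the difference. Without WT2 and KO2, Lys-TTT (-0.00018), Ala-TGC (-0.0069) and Glu-TTC (-0.10) of the less abundant were also below 0. His-GTG (0.025) of the more abundant was then above 0. Of the 146 nuclear isodecoders tested, 124 were above 0 on this scale. The Spearman rho between WT share and this difference was -0.56 over 22 tRNAs, a description in which both measures use the WT values.

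Members with and without a cytosine near the variable loop had similar median differences in KO. In the 6 bases that follow the 3′ side of the anticodon stem, 9 genes have a cytosine and 13 have none, and the median difference in the pool was 0.00 for the 9 and 0.02 for the 13. Leu2-TAA and Ser1-GCT have 3 cytosines there, with pool differences of 0.32 and 0.03 (SE 0.14 and 0.05). The 4 genes with 1 cytosine, Asn-GTT among them, together held 19.4%, 19.3% and 20.2% of the pool in WT1 to WT3. They held 18.2%, 18.0%, 18.9% and 18.0% in KO1 to KO4, without overlap, a sum that carries no test. Asn-GTT alone went from a mean of 9.63% in WT to 8.72% in KO. Of single tRNAs, 1.79% of all 168 were lower in every KO library on this scale. The groups with 0, 2 and 3 cytosines overlapped between genotypes. Their means were 54.4%, 16.9% and 9.02% in WT and 55.3%, 16.6% and 9.79% in KO. Cys-GCA, the member with the largest fall on the deposited scale, has none in that window. Methylation itself is not measured by these values.

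The nuclear genes that serve these tRNAs were read from the ribosome profiling mice, which are other animals. Across 5 lists (aminoacyl-tRNA synthetases and transamidation, end processing and repair, modification, transcription and nucleoid, translation factors), 80 of 84 genes were tested in RNA, and 1 fell and 1 rose. Of all 12692 transcripts 1.61% were called lower and 1.28% higher. The list median was 0.08, against 0.02 for all transcripts. Mitochondrially encoded mRNAs are not analysed here, since the authors removed mitochondrial reads.

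Nsun2, the deleted gene, was the member that fell, by 1.72 on the log2 scale (SE 0.12, limma adjusted p = 2.7e-05). Gars, the glycyl-tRNA synthetase that serves both cytosol and mitochondria, had 1970 and 1711 normalised counts in WT and 2688 and 2874 in KO. The difference was 0.60 (SE 0.11, limma adjusted p = 0.014), and the call was lost without WT2 of these mice (adjusted p = 0.13). Among the other synthetases and transamidation genes 0 passed, Qrsl1, a subunit of the glutamyl-tRNA amidotransferase, being nearest at 0.46 (SE 0.17, limma adjusted p = 0.16).

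The other lists held no further call in RNA. Hsd17b10 and Trmt10c, subunits of mitochondrial RNase P, were at 0.38 and 0.36 (SE 0.18 and 0.18). Trub2, a pseudouridine synthase, was at 0.38 (SE 0.13), and Polrmt and Tfam, the mitochondrial RNA polymerase and its transcription factor, at 0.35 and 0.20 (SE 0.20 and 0.11). Tufm, the mitochondrial elongation factor Tu, was at 0.46 (SE 0.13, limma adjusted p = 0.079) and the ribosomal release factor gene Mrpl58 at 0.40 (SE 0.11, limma adjusted p = 0.082). Those with unadjusted p under 0.05 numbered 9 higher and 3 lower among the 80, where 10.6% of all transcripts were higher and 9.86% lower at that threshold. The 3 lower were Nsun2 and the mitochondrial synthetase genes Cars2 (-0.54, SE 0.20, limma adjusted p = 0.17) and Nars2 (-0.41, SE 0.17, limma adjusted p = 0.21).

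In ribosome footprints 77 of these genes were tested, and Nsun2 fell by 2.16 on the log2 scale (SE 0.21, limma adjusted p = 0.00014), and 0 rose. Of all 10950 transcripts 0.374% were called lower and 0.201% higher, and at an unadjusted p under 0.05 there were 3 of the 77 list genes in each direction, where 7.04% of all transcripts were lower and 5.94% higher. Gars had 445 and 413 normalised footprint counts in WT and 550 and 598 in KO, a difference of 0.42 (SE 0.10, limma adjusted p = 0.067). Lars2, the mitochondrial leucyl-tRNA synthetase, was at -0.72 (SE 0.28), Tfam at -0.44 (SE 0.20) and Polg, the mitochondrial DNA polymerase, at 0.45 (SE 0.18), none of which passed. Pde12, a mitochondrial poly(A) exonuclease, was at 0.52 (SE 0.27) and Trmt10c at 0.46 (SE 0.24), and the release factor genes Mtrf1 and Mrpl58 were at -0.66 and -0.33 (SE 0.32 and 0.17), also short of the threshold. Among the translation factors 11 of 12 were below 0 in footprints, with a list median of -0.06 against 0.00 for all transcripts. In RNA 3 of these 12 were below 0 and 9 above. Over all the lists together, 40 of the 77 footprint differences were below 0 and 37 above. These sign counts carry no test.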

How the data were processed

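YAMAT-seq libraries (3 WT, 4 KO) were trimmed with cutadapt, deduplicated by unique molecular identifier with UMI-tools and merged with PEAR by the authors, who deposited DESeq2-normalised counts, a signal unit in normalised counts per tRNA. The aligner and tRNA reference are not given in the sources used here. Each value was a whole multiple of a library-specific step, and size factors recomputed from the steps matched them, so the steps were read as reads. The ribosome profiling signal deposited by the authors is median-normalised, stalling-corrected counts per transcript (2 WT, 2 KO mice). A second tRNA table held 0 mitochondrial rows and was not used. Columns without a sample numbered 0.

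Values were tested as log2(value + 1) with limma 3.58.1 in R 4.3.3, for features with a mean of 10 or more in a genotype, with a trended variance. The mitochondrial scale divided each library by its summed mitochondrial signal. Shares and correlations over the members carry no test. Genes, coordinates and sequences came from GENCODE vM21 and RefSeq GRCm38. Every mitochondrial tRNA is shown in the figures, and not all are given by value in the text. Of each nuclear list, the 2 with the smallest p are reported, called or not. For modification in footprints, Nsun2 alone is given. In RNA, list genes lower at an unadjusted p under 0.05 are also named. The members, lists and tests were chosen with earlier results of these data known. A marker gene of the list used is not reported here. Fits were tested on simulated data. The alternatives covered pseudocounts of 0.5 and 5, filters, scalings, leaving out libraries and a replicate block.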

Additional observations from a re-analysis of the deposited data

Results flagged for a closer look

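In the KO group of 4 libraries, 2 of 46 values examined had a single library far from the rest, its gap to the nearest being over 0.829 of the whole range. Chance gives about 1 in 20 such groups. The share of Tyr-GTA in the mitochondrial pool was 1.17% in KO4 and 0.883% to 0.924% in the other KO libraries, a gap of 0.857 of the range. The light-strand share of the pool was 27.3% in KO1 and 28.3% to 28.4% in the others, a gap of 0.927 of the range.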

How the results depend on the processing

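Counts of members called were 0 in the mitochondrial pool under every alternative run. On the deposited scale 1 member was called lower, 0 without WT2 and KO2 together, and 0 to 5 when single libraries were left out, and 0 were called higher throughout. Over all tRNAs, 5 were called lower (0 to 10 under the alternatives) and 10 higher (2 to 21). The cause was not tested. The share of mitochondrial tRNA differed by -1.89 points (-2.59 to -1.02 leaving out single libraries), the light-strand share by -0.67 (-1.12 to -0.28), and the codon-use rho was -0.25 (-0.30 to -0.22).

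These estimates changed sign, none of them called. On the deposited scale, scaling to the sum of all tRNAs gave Ile-GAT 0.18, Leu2-TAA 0.21, Phe-GAA 0.14, Thr-TGT 0.066, Ser2-TGA 0.16 and Tyr-GTA 0.17, and scaling to nuclear tRNAs gave 0.15, 0.17, 0.10, 0.030, 0.13 and 0.14 in that order. Quantile normalisation gave His-GTG 0.019, Trp-TCA 0.073, Gln-TTG 0.018, Ile-GAT 0.082 and Leu2-TAA 0.11. Leaving out WT2 and KO2 gave Trp-TCA 0.018, Ile-GAT 0.0096, Phe-GAA 0.14, Ser2-TGA 0.17 and Tyr-GTA 0.24. Leaving out single libraries gave Phe-GAA -0.34 to 0.0067, Ser2-TGA -0.24 to 0.065 and Tyr-GTA -0.34 to 0.075. Within the pool, the geometric mean as the scale gave Trp-TCA -0.042, Ser1-GCT -0.021, Leu1-TAG -0.022, Lys-TTT -0.031 and Glu-TTC -0.042, and the sum without His-GTG gave Trp-TCA -0.0052 and Glu-TTC -0.0053. Leaving out WT2 and KO2 gave His-GTG 0.025, Lys-TTT -0.00018, Ala-TGC -0.0069 and Glu-TTC -0.10. Leaving out single libraries gave His-GTG -0.19 to 0.0082, Trp-TCA -0.047 to 0.086, Gln-TTG -0.018 to 0.016, Leu1-TAG -0.0069 to 0.040 and Glu-TTC -0.049 to 0.068.

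Replicate numbers were not used to pair the YAMAT-seq samples. Same-numbered deviations correlated at 0.32, -0.60 and -0.03 over 168 tRNAs. The value of -0.60 is that of WT2 and KO2, and such correlations cannot exclude a pairing. With the replicate block 1 member was called lower on the deposited scale and 0 in the pool, where Trp-TCA became -0.023 and Gln-TTG 0.00012. KO4 has no WT library of its number, so the block fit has the same estimates as the fit without KO4. For Cys-GCA both gave -0.65, with a limma adjusted p of 0.024 with the block and 0.065 without KO4. In the ribosome profiling mice the correlations were -0.08 (RNA) and -0.14 (footprints), and with the replicate block 0 list genes rose in RNA. The crossed pairing, added after seeing the data, called 1 list gene lower and 1 higher in footprints. Higher list genes numbered 0 to 1 in RNA and 0 to 1 in footprints when single mice were left out, the lone mouse of a genotype being assumed to vary like the other genotype, and 1 in footprints after quantile normalisation. The planned edgeR and DESeq2 fits were not run, and limma voom and the fits without WT2 and KO2 were added after seeing the data.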
